A study of Homo sapiens with 32 samples.

Results

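FTO and ALKBH5 are the enzymes known to remove N6-methyladenosine (m6A) from RNA, and their own transcripts can carry the mark. Peaks of m6A on both genes were collected from every library of the series by position. A peak was taken where it overlapped FTO (chr16:53737875-54148379, plus strand, 410.5 kb) or ALKBH5 (chr17:18086867-18113268, plus strand, 26.4 kb) by at least 1 bp on the hg19 build. This gave 93 of the 424904 peaks, 84 in FTO and 9 in ALKBH5. Peaks of all libraries that overlapped were joined into sites, 34 in FTO and 3 in ALKBH5 of 174376 in the series.

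The cells were PANC-1, an established line of human pancreatic ductal adenocarcinoma. Libraries labelled as CFL1 knockout (cofilin 1, an actin filament-severing protein), METTL3 knockout (the catalytic subunit of the m6A writer complex) and control were compared, with 2 antibody libraries behind each list. No other allele or agent is given for these groups, and the labels do not say whether a knockout was a single clone. The peak names number the libraries 3 and 5 in each knockout and 1 and 2 in control. Knockout peak names carry the letters "si", while the labels say knockout, and peak lists cannot show whether either protein, or the markers of the cell line, were present or absent.

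A writer complex around METTL3 and METTL14 places m6A, mostly within a consensus whose core is often GGAC, and reader proteins of the YTH family bind it. FTO and ALKBH5 belong to the AlkB family of iron- and 2-oxoglutarate-dependent dioxygenases, which oxidise the methyl group so that it is lost. FTO also acts on the methylated cap-adjacent adenosine m6Am, which antibodies to m6A bind too. In messenger RNA, m6A is known to gather near stop codons and in long internal exons.

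The authors' fold enrichment and −log10 q of each peak are used below, as their peak caller gave them. Fold is the ratio of a peak's signal to its background, and −log10 q grows with both fold and reads. Total peaks were 72728 and 66295 in CFL1 knockout libraries 3 and 5, 63859 and 64952 in METTL3 knockout libraries 3 and 5, and 77603 and 79467 in control libraries 1 and 2. Over the 18877 sites held by all 6 libraries, the median fold was 6.17 and 6.91 in CFL1 knockout libraries 3 and 5, 7.22 and 7.76 in METTL3 knockout libraries 3 and 5, and 6.06 and 6.12 in control libraries 1 and 2. Read depth is unknown, so a missing peak was not detectable under the authors' threshold and is not shown to be absent. Levels of RNA in the inputs were not used here, so less methylation and less RNA cannot be told apart. Separate cultures are not stated for the libraries of a group, so the p-values measure only the spread between these libraries, which may be technical. The smallest two-sided p of an exact permutation test with 2 libraries a group is 0.333, so no difference below could pass a threshold of 5%.

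ALKBH5 carried a wide site at its start in all 6 libraries, weaker in both knockouts than in control, and a site near its end that the control libraries held and no knockout library did. The start site spanned 18086390 to 18088092, from 477 bp before the start of the gene to 1225 bp into it. The first bases of the gene lie inside every one of its peaks, so the window around the transcription start is shown here from RefSeq, on GRCh38.p14 at chr17:18183578-18183877, plus strand. It runs from 250 bases before the start to 50 after it, with those last 50 in capitals, and it was not placed on the hg19 coordinates of the peaks.
ALKBH5: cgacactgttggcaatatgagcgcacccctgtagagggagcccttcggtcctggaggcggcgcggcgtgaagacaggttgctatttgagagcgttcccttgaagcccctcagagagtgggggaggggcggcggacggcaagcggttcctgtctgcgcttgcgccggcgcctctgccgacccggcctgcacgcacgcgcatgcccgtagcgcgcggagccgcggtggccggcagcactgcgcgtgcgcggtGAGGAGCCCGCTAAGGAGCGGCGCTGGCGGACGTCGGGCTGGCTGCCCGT

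In this window, 71% of the bases are G or C. The letters GGAC begin at bases -119 and 29 from the start, the second inside the transcribed part, and GTCC, the same letters on the other strand, begins at -203. Of 35116 RefSeq windows of this length, 87.4% hold GGAC on either strand, and 18.9% hold it on the gene's strand within the last 50 bases. Such a match is a description of the letters alone. The summits of the site lay 859 to 908 bp from the hg19 start of the gene and were not placed on this window.

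Fold at the ALKBH5 start site was 1.83 and 2.08 in CFL1 knockout libraries 3 and 5, 2.57 and 3.56 in METTL3 knockout libraries 3 and 5, and 5.64 and 6.05 in control libraries 1 and 2. The 4 knockout libraries all lay below both control libraries, and both CFL1 knockout libraries below both METTL3 knockout libraries. Fold averaged 1.95 ± 0.180 in the CFL1 knockout and 5.85 ± 0.290 in control (SD, n = 2 each), a ratio of 0.334 (two-sided exact permutation p = 0.333, the smallest possible). It averaged 3.06 ± 0.698 in the METTL3 knockout against the same control, a ratio of 0.524 (two-sided exact permutation p = 0.333). The ratio of the CFL1 knockout to the METTL3 knockout was 0.638 (two-sided exact permutation p = 0.333).

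All 3 differences were larger than the spread between libraries. The 2 to control ran against the median of the series, while the one between the knockouts ran with it, since the median fold was lower in both CFL1 knockout than in both METTL3 knockout libraries. Over all sites held by all 6 libraries, the median ratio of fold to control was 1.09 for CFL1 knockout and 1.23 for METTL3 knockout libraries. A ratio as low as that of the ALKBH5 start site or lower was found at 2.38% of those sites for the CFL1 knockout and at 6.66% for the METTL3 knockout. A site whose 4 knockout libraries all lay below both control libraries in fold was itself common, at 13.5% of the same sites, against 25.4% with all 4 above. Taken singly, both libraries lay below both control libraries at 26.4% of the sites for the CFL1 knockout and at 20.0% for the METTL3 knockout. The CFL1 knockout libraries were both below the METTL3 knockout libraries at 33.8% of them. Divided by the median fold of its library, the start site stood at 0.296 and 0.301 in CFL1 knockout libraries 3 and 5, 0.356 and 0.458 in METTL3 knockout libraries 3 and 5, and 0.930 and 0.989 in control libraries 1 and 2. This scaling left the order of the groups as it was, and 20.1% of the sites had all 4 knockout libraries below control on the scaled fold.

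The −log10 q of the ALKBH5 start site was 23.5 and 42.7 in CFL1 knockout libraries 3 and 5, 76.4 and 116 in METTL3 knockout libraries 3 and 5, and 140 and 216 in control libraries 1 and 2. The same order of groups held as for fold, with no overlap between them. How many sites have all 4 knockout libraries below control, or the CFL1 knockout below the METTL3 knockout, in −log10 q was not counted. In −log10 q, 31.5% of the sites held by all 6 libraries had both CFL1 knockout libraries below control, and 27.8% had both METTL3 knockout libraries below it. In control libraries 1 and 2 it exceeded 96.0% and 97.4% of the peaks of its own library. The peaks were 1301 and 1520 bp wide in CFL1 knockout libraries 3 and 5, 1292 and 1222 bp in METTL3 knockout libraries 3 and 5, and 1703 and 1693 bp in control libraries 1 and 2. All 4 knockout peaks were narrower than both control peaks, and the share of series sites with this order of widths was not counted. The METTL3 knockout peaks began 219 and 159 bp before the gene and CFL1 knockout 3 began 145 bp before it, while CFL1 knockout 5 began 466 bp before it, close to the 477 and 476 bp of control libraries 1 and 2. The summits hardly moved, lying 906 and 908 bp into the gene in CFL1 knockout libraries 3 and 5, 859 and 860 bp in METTL3 knockout libraries 3 and 5, and 899 and 897 bp in control libraries 1 and 2.

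Near the end of ALKBH5, a site at 18111737 to 18112114 was called in neither CFL1 knockout nor METTL3 knockout libraries and in both control libraries. Its fold was 2.09 and 2.16 and its −log10 q 27.0 and 34.3 in control libraries 1 and 2. Its summits lay 24991 and 24989 bp into the gene, with 1154 bp from the edge of the site to the end. A second site at 18111395 to 18111596 was called in control 2 alone, at a fold of 1.32 and a −log10 q of 2.14. Sites held by both control libraries and no knockout library made up 13.3% of all sites of the series. The fold of the end site was low for its −log10 q, since only 2.91% and 3.99% of the peaks of control libraries 1 and 2 had a lower fold. No site was called between 1225 and 24528 bp into ALKBH5, in any library.

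**Figure D1:**
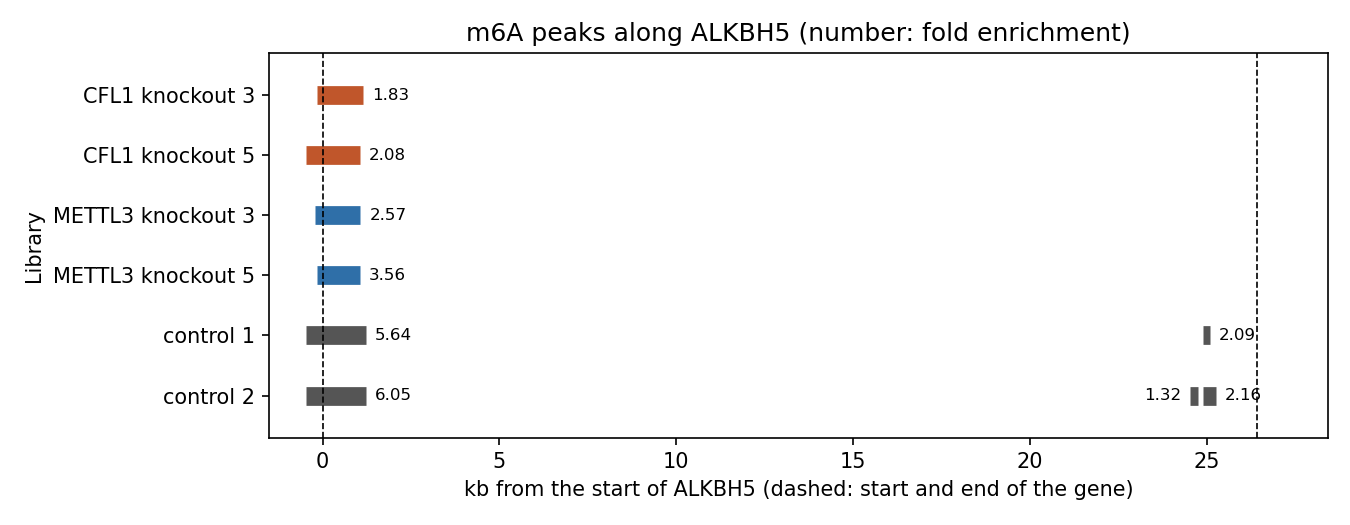
Peaks of m6A along ALKBH5 in the 6 libraries, drawn as bars from start to end in kb from the start of the gene, with the fold enrichment of each peak beside it. All libraries hold the start site, with folds of 1.83 to 3.56 in the knockouts and 5.64 to 6.05 in control, and only the control libraries hold peaks near the end.

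Counting peaks, ALKBH5 held 1 in each CFL1 knockout library, 1 in each METTL3 knockout library, and 2 and 3 in control libraries 1 and 2. The mean was 1 in each knockout and 2.5 ± 0.707 in control (SD, n = 2 each), a ratio of 0.4 for both knockouts (two-sided exact permutation p = 0.333, the smallest possible). Control sites with no CFL1 knockout peak numbered 2 of 3 (66.7%, exact 95% interval 9.43% to 99.2%), and the same 2 had no METTL3 knockout peak. Over the series these shares were 64.9% and 65.0%, so the share in ALKBH5 was near the background, and 3 sites allow almost any value. Each knockout held 1 ALKBH5 site, and it had a control peak, so 0 of 1 was without one (exact 95% interval 0% to 97.5%), against 62.5% of CFL1 knockout and 57.9% of METTL3 knockout sites over the series.

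FTO, 410.5 kb against 26.4 kb for ALKBH5, carried many more sites, mostly weak, and at its strongest site the groups overlapped in −log10 q. Its sites lay from the start of the gene to 373.9 kb into it and were 200 to 1284 bp wide, with a median of 294 bp. The start of FTO lies next to RPGRIP1L in RefSeq, and FTO-IT1 and 2 lncRNA genes known only by LOC names lie inside FTO there. Since the peaks carry no strand, these genes and FTO cannot be told apart where they overlap. The files do not say which sites are exonic, and an hg19 annotation was not used here.

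The first FTO site, at 53737921 to 53738189, began 46 bp into the gene and was held by both METTL3 knockout libraries and by no other. Its fold was 4.92 and 4.18 and its −log10 q 5.10 and 4.70 in METTL3 knockout libraries 3 and 5, above 29.2% and 28.0% of the peaks of those libraries by −log10 q. Over the series, 3.63% of sites were held by both METTL3 knockout libraries and no CFL1 knockout library, with or without a control peak. The share that no control library held either was not counted. No FTO site was held by both CFL1 knockout libraries and no METTL3 knockout library, a pattern of 3.74% of all sites. The RefSeq window of the FTO start is shown for that reason, on GRCh38.p14 at chr16:53703906-53704205, plus strand, in the same layout.
FTO: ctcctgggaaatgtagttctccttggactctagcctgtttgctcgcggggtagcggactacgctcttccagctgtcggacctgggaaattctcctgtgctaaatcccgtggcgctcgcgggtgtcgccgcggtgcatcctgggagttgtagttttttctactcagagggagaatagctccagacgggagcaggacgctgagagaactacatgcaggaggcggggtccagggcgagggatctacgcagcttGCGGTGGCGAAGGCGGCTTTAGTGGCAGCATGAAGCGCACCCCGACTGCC

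In the FTO window, 60% of the bases are G or C. The letters GGAC begin at -226, -196, -174 and -59, and GTCC at -27, with none in the 50 transcribed bases. The share of all RefSeq windows with these letters is given above. RefSeq's start on GRCh38.p14 and the hg19 start used for the peaks were not aligned to each other.

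The strongest FTO site spanned 53859632 to 53860396, 122.1 kb into the gene, and all 6 libraries held it. Its −log10 q was 64.6 and 90.2 in CFL1 knockout libraries 3 and 5, 118 and 74.6 in METTL3 knockout libraries 3 and 5, and 88.5 and 132 in control libraries 1 and 2, and all 3 groups overlapped. Its fold was 5.72 and 5.48 in CFL1 knockout libraries 3 and 5, 9.41 and 6.83 in METTL3 knockout libraries 3 and 5, and 4.94 and 5.80 in control libraries 1 and 2. Only the METTL3 knockout lay above both control libraries in fold, at 8.12 ± 1.82 against 5.37 ± 0.604 (SD, n = 2 each), a ratio of 1.51 (two-sided exact permutation p = 0.333). Both METTL3 knockout libraries lay above both control libraries at 43.5% of the sites held by all 6, and after division by the library medians the groups overlapped. The CFL1 knockout differed from control by less than the spread, with a ratio of 1.04 (two-sided exact permutation p = 1).

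A narrow site at 53877870 to 53878150, 140.1 kb into FTO, was strong in control and weaker or undetected in the CFL1 knockout. Its −log10 q was 10.6 in CFL1 knockout 3, where CFL1 knockout 5 had no peak, 69.8 and 47.1 in METTL3 knockout libraries 3 and 5, and 91.6 and 90.2 in control libraries 1 and 2. Its fold was 3.36 in CFL1 knockout 3, 8.74 and 8.23 in METTL3 knockout libraries 3 and 5, and 10.3 and 7.48 in control libraries 1 and 2. Fold in the METTL3 knockout averaged 8.49 ± 0.361 against 8.90 ± 2.02 in control (SD, n = 2 each), a ratio of 0.953 (two-sided exact permutation p = 1), within the spread between libraries. Divided by the library medians, fold in the METTL3 knockout lay below control, at 1.14 ± 0.106 against 1.46 ± 0.340 (SD, n = 2 each), a ratio of 0.777. In −log10 q it lay below control too, at 58.5 ± 16.0 against 90.9 ± 0.953 (SD, n = 2 each), a ratio of 0.643. Among sites held by all 6 libraries, which leave this site out, 27.8% had both METTL3 knockout libraries below control in −log10 q. For scaled fold that share was not counted. With 1 called CFL1 knockout library, no test of fold was made there.

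The site at 54030852 to 54031143, 293.1 kb into FTO, was strong in both knockouts and weak or undetected in control. Its −log10 q was 81.8 and 64.1 in CFL1 knockout libraries 3 and 5 and 60.5 and 37.2 in METTL3 knockout libraries 3 and 5, against 2.21 in control 2 and no peak in control 1. Its fold was 5.11 and 3.89 in CFL1 knockout libraries 3 and 5 and 7.25 and 5.46 in METTL3 knockout libraries 3 and 5, against 2.90 in control 2. All 4 knockout libraries thus lay above the 1 control library that held the site. How many series sites missing from 1 control library have this order was not counted. Among sites held by all 6 libraries, 25.4% had all 4 knockout libraries above both control libraries in fold. In CFL1 knockout 3 this was the strongest FTO site by −log10 q.

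Nearby sites were less ordered. The site at 53865507 to 53866026, 127.9 kb into FTO, had a −log10 q of 2.58 in CFL1 knockout 3, none in CFL1 knockout 5, 6.58 and 38.4 in METTL3 knockout libraries 3 and 5, and 11.3 and 13.2 in control libraries 1 and 2. The METTL3 knockout libraries lay on either side of control there, with folds of 2.87 and 12.2 against 4.73 and 5.54 in control libraries 1 and 2. At 54045816 to 54046462, 308.3 kb into the gene, all 6 libraries held a site with folds of 3.99 and 7.59 in CFL1 knockout libraries 3 and 5, 4.12 and 7.12 in METTL3 knockout libraries 3 and 5, and 4.50 and 6.70 in control libraries 1 and 2. Its ratio to control was 1.03 for the CFL1 knockout and 1.004 for the METTL3 knockout (two-sided exact permutation p = 1 for both), far inside the spread between libraries.

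**Figure D2:**
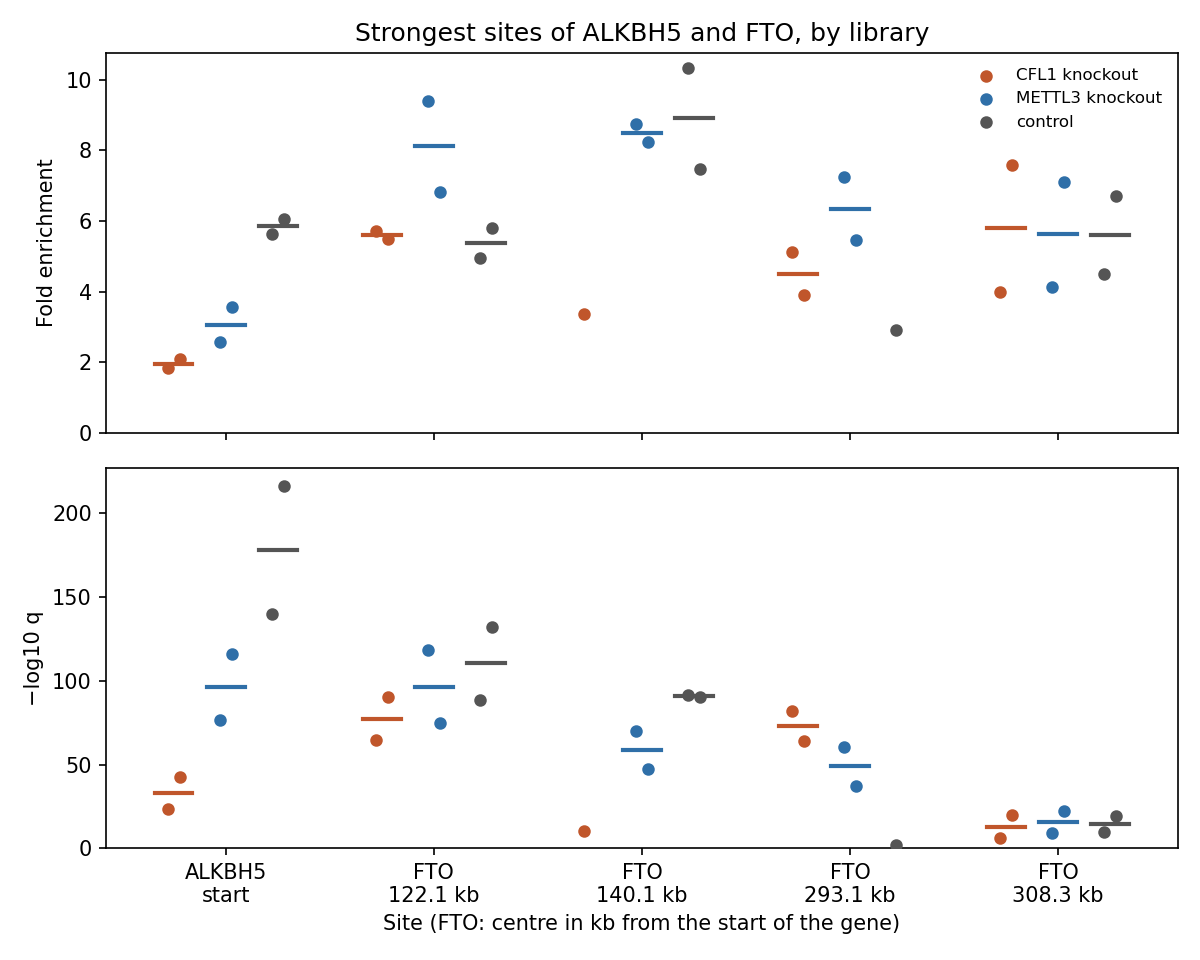
Fold enrichment (top) and −log10 q (bottom) of the ALKBH5 start site and 4 of the strongest FTO sites, with a point for each library that held the site and a line at the mean of 2 libraries. The groups separate at the ALKBH5 start site and overlap in −log10 q at the FTO sites 122.1 and 308.3 kb into the gene. At 140.1 kb the METTL3 knockout and control lie above CFL1 knockout 3, and at 293.1 kb all 4 knockout libraries lie above control 2.

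Of the 34 FTO sites, 5 were held by both control libraries and no knockout library (14.7%, against 13.3% of all sites of the series). The strongest lay at 53762673 to 53763406, where control libraries 1 and 2 had folds of 7.12 and 7.41 and −log10 q of 10.2 and 13.4. The others were at 53999723 to 54000106 (highest −log10 q 11.5), 53990608 to 53990874 (9.15), 53771850 to 53772120 (5.08) and 54018182 to 54018477 (4.48). None of the 5 passed a −log10 q of 13.4. A further 2 sites (5.88%, against 10.8% of the series) were held by all 6 libraries.

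Only 1 FTO site (2.94%, against 3.63% of the series) was held by all 4 knockout libraries and no control library. It spanned 54077862 to 54079145, 340.6 kb into the gene, and was the widest of FTO at 1284 bp. Its highest −log10 q was 16.1 and 16.2 in CFL1 knockout libraries 3 and 5 and 13.6 and 15.7 in METTL3 knockout libraries 3 and 5, a narrow range. Beside it, a site at 54077323 to 54077608 was held by CFL1 knockout 5 (fold 8.38, −log10 q 17.7) and by METTL3 knockout libraries 3 and 5 (folds 5.48 and 4.88), and by no control library.

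Both belong to a run of 6 neighbouring sites from 54074417 to 54081102, 336.5 to 343.2 kb into FTO, the longest with gaps under 2 kb. The run was chosen after its values were seen, so it has no test. It held 5 peaks in CFL1 knockout 3, 5 in CFL1 knockout 5, 5 and 3 in METTL3 knockout libraries 3 and 5, and 1 and 2 in control libraries 1 and 2. Every knockout library held more peaks in it than either control library, and how many runs of the series have this order was not counted. Counted as sites, CFL1 knockout 3 held 4 in the run, and the other libraries held as many sites as peaks.

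Cut into 4 equal parts of 102.6 kb, FTO held in its first part no peak in either CFL1 knockout library, 2 in each METTL3 knockout library, and 3 and 5 in control libraries 1 and 2. The second held 4 and 1 in CFL1 knockout libraries 3 and 5, 5 and 3 in METTL3 knockout libraries 3 and 5, and 4 and 6 in control libraries 1 and 2. The third held 2 in each CFL1 knockout library, 1 and 2 in METTL3 knockout libraries 3 and 5, and 3 and 5 in control libraries 1 and 2. In the first and the third of them, all knockout libraries lay below both control libraries. The same order held for the total peaks of the libraries, 63859 to 72728 in the knockouts against 77603 and 79467 in control, and the counts of the parts are not scaled for it. The last part held 8 and 7 in CFL1 knockout libraries 3 and 5, 7 and 4 in METTL3 knockout libraries 3 and 5, and 3 and 5 in control libraries 1 and 2. There the CFL1 knockout lay above control, and the METTL3 knockout overlapped it. For the orders seen in these parts, the share of series stretches of 102.6 kb with the same order was not counted.

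**Figure D3:**
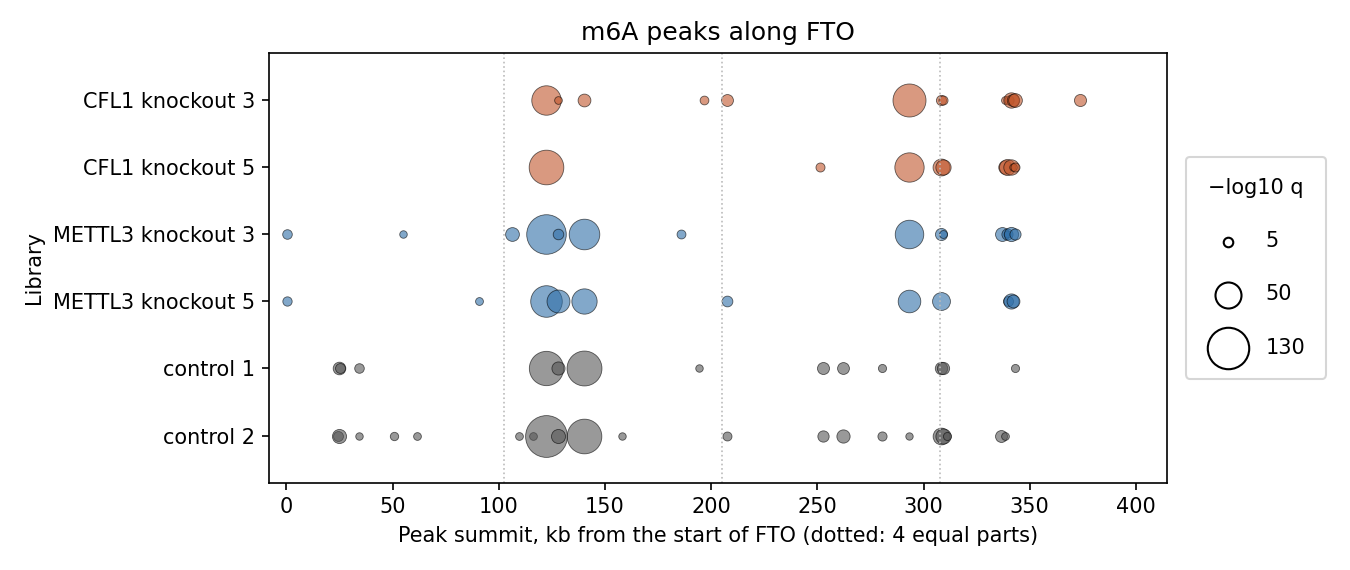
Summits of m6A peaks along FTO in the 6 libraries, in kb from the start of the gene, with the area of a circle growing with −log10 q and dotted lines between 4 equal parts. The large circles at 122.1 kb appear in every library, those at 140.1 kb are large in the METTL3 knockout and control, and those at 293.1 kb are large in the 4 knockout libraries.

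**Figure D4:**
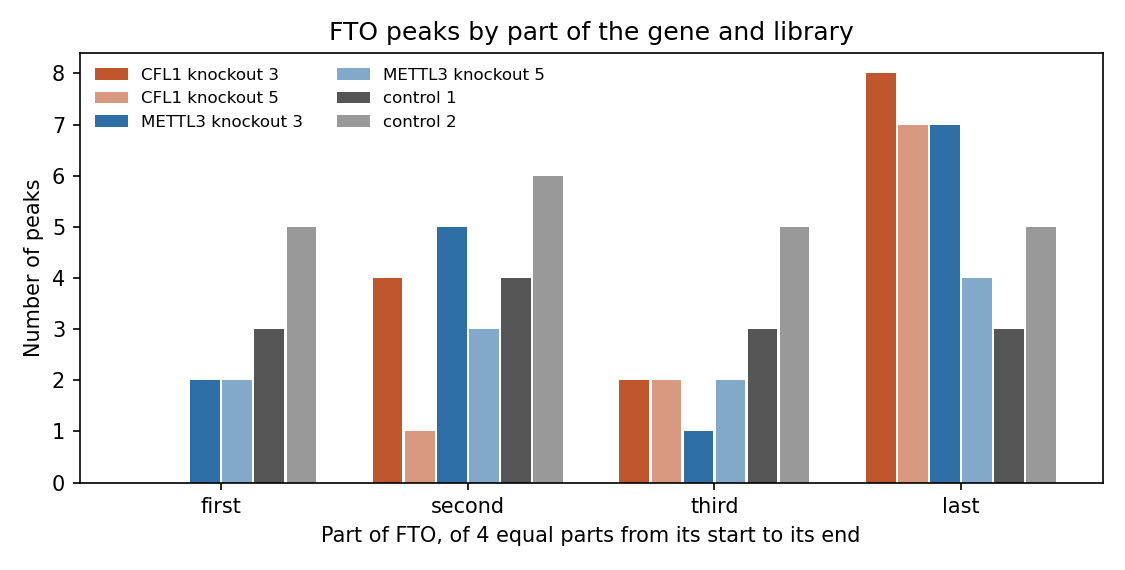
Number of m6A peaks in each of 4 equal parts of FTO, from its start to its end, with a bar for each library. The first part holds 0 to 2 peaks in the knockout libraries and 3 and 5 in control libraries 1 and 2, and the last holds 4 to 8 in the knockout libraries and 3 and 5 in control libraries 1 and 2.

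In all, FTO held 14 and 10 peaks in CFL1 knockout libraries 3 and 5, 15 and 11 in METTL3 knockout libraries 3 and 5, and 13 and 21 in control libraries 1 and 2. Both knockouts overlapped control. The CFL1 knockout averaged 12 ± 2.83 peaks, the METTL3 knockout 13 ± 2.83 and control 17 ± 5.66 (SD, n = 2 each), ratios of 0.706 and 0.765 (two-sided exact permutation p = 0.667 for both). Without control 2 the ratio of the CFL1 knockout was 0.923, and that of the METTL3 knockout was 1, with no direction left. With −log10 q held to 10 or more, the ratios turned to 1.09 and 1.18, with 5 and 7 peaks in CFL1 knockout libraries 3 and 5, 6 and 7 in METTL3 knockout libraries 3 and 5, and 4 and 7 in control libraries 1 and 2.

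Of the 23 FTO sites with a control peak, 14 had no CFL1 knockout peak (60.9%, exact 95% interval 38.5% to 80.3%), against 64.9% of all control sites. The number without a METTL3 knockout peak was also 14, against 65.0% of all control sites. For these shares, in FTO and over the series, peaks of control and of 1 knockout were joined without those of the other knockout. The site at 54076103 to 54077100 held control 2 and METTL3 knockout 3 peaks that only a CFL1 knockout 5 peak linked. Its control 2 peak thus counts here as without a METTL3 knockout peak. Of the 15 FTO sites of the CFL1 knockout, 6 had no control peak (40%, 16.3% to 67.7%), against 62.5% over the series. Of the 18 of the METTL3 knockout, 9 had none (50%, 26.0% to 74.0%), against 57.9%. Those 9 include the METTL3 knockout 3 peak at 54076639 to 54077100, which shares a site with control 2 only when all 6 libraries are joined. The shares of control sites without a knockout peak were thus near the background, and the intervals of the other shares hold the 62.5% and 57.9% of the series. These intervals cover counting error only, and sites of 1 gene are not independent.

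The nearest sites outside the genes were held by 1 or 2 libraries each. Before FTO, 6214 bp away, a site was held by control 2 alone (−log10 q 3.40). After it, 4003 bp away, both CFL1 knockout libraries held a site (−log10 q 10.6 in each). Around ALKBH5, the nearest sites lay 61630 bp before its start (CFL1 knockout 3, −log10 q 3.31) and 6978 bp after its end (CFL1 knockout 5, −log10 q 6.13).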

How the data were processed

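Anti-m6A antibody libraries and inputs of PANC-1 total RNA stand behind 3 deposited peak lists, covering 12 of the 32 labelled samples. The other 20, from nuclear RNA and cytochalasin D experiments, were not analysed here. Titles set the groups. Peaks were called with MACS2 after STAR alignment to hg19, and bedtools was also used, per the submitters' processing notes. The sources used here give no versions or settings and do not say whether input was the background. The deposited values used are the authors' fold enrichment, a ratio, their −log10 q, and the summit position. Read depth is unknown.

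Each list joins 2 separately called libraries, named in its peaks. Peaks overlapping by at least 1 bp were joined into sites, on all peaks of the series, and a library's value at a site is its highest. Background shares of patterns over libraries are over all 174376 sites. Those of order in fold or −log10 q are over the 18877 sites held by all 6 libraries. Shares of control or knockout sites without a peak of the other group rest on sites joined from control and that knockout alone, in the genes and over the series. Libraries were compared by two-sided exact permutation of the difference in means, and shares have exact (Clopper-Pearson) 95% intervals. Python 3.11.15, numpy 2.4.6, scipy 1.17.1 and matplotlib 3.10.9 were used. Joining was tested on simulated data. Named sites are, per gene, the 6 strongest by −log10 q, up to 5 held by both control libraries alone, up to 5 held by all 4 knockout libraries alone, and up to 3 held by both libraries of 1 knockout and none of the other, or every site where a gene has 10 or fewer. The nearest sites outside the genes, the run of FTO sites and the 4 equal parts of FTO were added. Promoter windows are RefSeq's on GRCh38.p14.

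The genes and lists were chosen with earlier results of these data known. The fixed list of other m6A genes was not analysed here, since hg19 coordinates for it were not used. Alternatives were thresholds of −log10 q and fold, other rules of overlap, joining within 100 bp, scaling, and leaving out each library.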

Additional observations from a re-analysis of the deposited data

How the results depend on the processing

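Against control no paired comparison was made, since its peaks are numbered 1 and 2 and those of the knockouts 3 and 5. Both knockouts carry the numbers 3 and 5, which no label ties to a shared culture or day. With the number as a replicate block, chosen after seeing the data, the ratio of CFL1 to METTL3 knockout fold at the ALKBH5 start site was 0.711 for number 3, 0.585 for number 5 and 0.645 as their geometric mean (exact sign-flip permutation p = 0.5, the smallest possible with 2 pairs). It was 0.345 with −log10 q, 0.734 when scaled, and 0.550 to 0.761 without each library. Read depth is unknown, and it limits which weak sites were detectable. Scaled and −log10 q forms of the fold ratios were chosen after seeing the data. Except where fewer sites or libraries were counted by construction, the cause of a change was not tested.

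The ratios of ALKBH5 peaks to control stayed below 1 in both knockouts under all alternatives, from 0.333 to 0.5 without each library. In FTO they ran from 0.571 to 0.923 (CFL1 knockout) and from 0.619 to 1 (METTL3 knockout) without each library. With −log10 q held to 10 or more they turned to 1.09 and 1.18, and at 5 the METTL3 knockout stood at 1. The ALKBH5 start site kept a fold ratio below 1 under all alternatives, from 0.312 to 0.356 and from 0.439 to 0.608 without each library.

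Fold ratios of FTO sites were less stable. At the site 122.1 kb into the gene the CFL1 knockout ratio turned to 0.701 with −log10 q and 0.977 when scaled. It ran from 0.967 to 1.13 without each library. The METTL3 knockout ratio there turned to 0.874 with −log10 q, but was 1.24 when scaled and ran from 1.27 to 1.75 without each library. At 308.3 kb the CFL1 knockout turned to 0.882 and 0.951 in these 2 forms, and the METTL3 knockout to 0.810 when scaled. Without each library those 2 ran from 0.713 to 1.36 and from 0.736 to 1.27. In the same way the METTL3 knockout ran from 0.558 to 2.37 at 127.9 kb and from 0.822 to 1.13 at 140.1 kb, and the CFL1 knockout from 0.713 to 1.28 at 309.4 kb.

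The share of FTO control sites without a CFL1 or METTL3 knockout peak moved to 28.6% in both at a −log10 q of at least 10 (7 sites). It was 46.2% and 38.5% where fold was 4 or more (13 sites). For sites of both control libraries (10 sites) it was 50% in both. Without each library, the shares of both knockouts ran from 53.8% to 73.9%. In ALKBH5 these shares were 50%, 0% and 50% (of 2, 1 and 2 sites), and 50% to 66.7% without each library. FTO sites of the CFL1 knockout without a control peak made up 22.2% at a −log10 q of at least 10, 46.7% by summit, 25% for sites of both libraries, and 35.7% to 60% without each library. Those of the METTL3 knockout made up 33.3% at a −log10 q of at least 10, 42.9% at a fold of at least 4, 37.5% for sites of both libraries, and 45.5% to 66.7%. The series shares were not computed under these filters, so the filtered shares cannot be set against the background given earlier.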

Other observations

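Sites found in 1 library alone made up 15 of the 34 FTO sites (44.1%, against 48.3% of all sites of the series), and 7 of the 15 were from control 2. That library had the most peaks, and its share of such sites over the series was not counted. The highest −log10 q of the 15 sites had a median of 3.04, against 12.9 for the 19 sites found in more libraries. For those 19 it is the highest of several libraries, which by itself raises it. The strongest of the 15 was at 53843907 to 53844106, 106.1 kb into FTO, which METTL3 knockout 3 alone held, with a fold of 6.96 and a −log10 q of 12.6. The last site of the gene, at 54111411 to 54111727, was held by CFL1 knockout 3 alone, with a fold of 7.01 and a −log10 q of 9.31.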
